A study of Homo sapiens with 6 samples.

Results

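The erythroid and globin-switch transcription factors GATA1, GATA2, TAL1, KLF1, NFE2, ZFPM1, LMO2, GFI1B, BCL11A and MYB were examined for their expression upon EGR3 overexpression. These 10 genes were chosen by name, from what is known of red cell development, out of 35410 listed genes. Earlier results of these data were known when they were chosen. RNA was measured by MACE-Seq, which sequences cDNA ends of polyadenylated transcripts, in SEM, an established human proB leukemia cell line carrying the KMT2A::AFF1 fusion. SEM::EGR3 carries a doxycycline-inducible EGR3 construct, SEM::mock carries the empty vector, and cells of both lines were harvested 48 h after addition of 1 µg/mL doxycycline. Each line gave 3 libraries described as biological replicates, so both lines share the fusion and the drug, and 1 line stands for each condition.

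GATA1 and GATA2 are zinc finger factors that bind GATA sites, and in red cell progenitors GATA2 gives way to GATA1 as cells mature. TAL1 binds E-boxes together with an E protein and is bridged to GATA factors by LMO2 and LDB1, while ZFPM1 (FOG-1) binds GATA1 itself. KLF1 drives adult beta globin, BCL11A silences the fetal gamma globin genes, and MYB keeps progenitors dividing and holds gamma globin down, partly through KLF1. In B cell progenitors most of these factors are low, whereas BCL11A is part of the normal B cell program.

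RefSeq promoter windows (GRCh38.p14), from 250 bases before to 50 bases after an annotated start, were found for 8 of the 10 factors and covered 15 starts. LMO2 and NFE2 were not matched. Windows are shown because EGR factors bind a GC-rich motif. The letters GCGNGGGCG were searched on both strands, and 9.43% of 35116 windows of all genes hold them. Among the 15 windows of the factors, 2 hold them, 1 of ZFPM1 and 1 of BCL11A. In the following sequences capitals mark these letters. The first is the 250 bases before the ZFPM1 start (chr16:88453030-88453279, plus strand), with matches beginning at -200 and -144. A further match at 13 bases after the start lies on the opposite strand. The second is the same stretch of KLF1, the factor with the largest fall among those below (chr19:12887202-12887451, minus strand), with no match. The third is a stretch of 29 bases around the match of BCL11A (chr2:60554069-60554097, minus strand), which begins 163 bases before 1 of its 5 annotated starts, on the opposite strand, within an annotated exon.
ZFPM1: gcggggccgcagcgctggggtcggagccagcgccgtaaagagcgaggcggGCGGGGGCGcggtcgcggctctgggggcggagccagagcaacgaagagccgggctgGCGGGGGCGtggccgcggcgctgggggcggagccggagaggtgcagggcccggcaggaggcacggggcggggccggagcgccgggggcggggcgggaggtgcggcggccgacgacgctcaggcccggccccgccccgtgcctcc
KLF1: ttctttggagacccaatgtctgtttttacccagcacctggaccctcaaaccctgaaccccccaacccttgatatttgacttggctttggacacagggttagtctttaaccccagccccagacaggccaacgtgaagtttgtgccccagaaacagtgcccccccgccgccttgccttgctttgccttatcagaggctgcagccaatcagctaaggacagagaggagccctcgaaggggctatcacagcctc
BCL11A: ggcttccctcCGCCCGCGCttccccagcc
The letters AGATAA of a GATA site were found in 1 of the 15 windows against 10.3% of all windows, and that window belongs to TAL1. The E-box letters CAGATG of TAL1 were found in 2 of 15, both of GFI1B, against 14.7% of all. The CACCC-type letters CCNCNCCC bound by KLF1 were found in 11 of 15 against 56.2% of all. The EGR and CACCC-type letters are both GC-rich and overlapped in ZFPM1. Such matches are descriptions of letters and show no binding.

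Library depth was 5286115 to 6181388 counts for SEM::mock and 7293092 to 15106018 counts for SEM::EGR3. EGR3 gave 8, 10 and 6 counts for SEM::mock and 9768, 4952 and 5557 for SEM::EGR3, so the SEM::EGR3 libraries carried the gene their labels name. Low EGR3 counts alone cannot show that the SEM::mock libraries came from the empty-vector line. The proB identity of SEM is taken from the study, and B-lineage markers were not seen equally in both lines. In SEM::mock, the B-lineage factor EBF1 had 0 counts in each library and PAX5 had 1, 1 and 2 counts, and 11 of 15 B-lineage markers lay at the detection limit of 3 counts or fewer in every library, against 3 of 15 in SEM::EGR3. The summed level of the 15 markers was 135 to 159 CPM in SEM::mock, most of it from CD24, and 540 to 564 CPM in SEM::EGR3. Of the 10 markers tested, 9 were higher and 1, CD24, was lower in SEM::EGR3, against 36.5% and 32.0% of all tested genes. The summed level of erythroid transcripts exceeded that of these markers in both lines, though the lists differ in size (42 and 15 genes). Globin genes made up most of the erythroid sum. The 42 erythroid genes listed below summed to 7325 to 7629 CPM in SEM::mock and 7820 to 8013 CPM in SEM::EGR3. Whether the cells of either line were proB cells was not tested. The part of these marker differences in the results on the erythroid factors was not tested, and it cannot be told apart in bulk RNA whether fewer cells expressed a gene or each cell held less of its RNA.

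All 10 factors had enough counts to be tested, of which 8 were lower, 1 was higher and 1 did not pass the threshold in SEM::EGR3 compared to SEM::mock (adjusted p under 0.05, quasi-likelihood test of edgeR, adjusted after Benjamini and Hochberg over 15465 genes). Differences were common across the transcriptome, with 68.5% of all tested genes past the threshold. Lower calls made up 32.0% of all genes, against 8 of the 10 factors. Higher calls made up 36.5% of all genes, against 1 of the 10 factors. The libraries of both lines did not overlap for 9 of the 10 factors, against 70.1% of all genes. These shares are descriptions, since the factors were chosen with earlier results known. The median log2 fold change of the factors was -0.46, compared to 0.03 over all tested genes. Of the 8 lower factors, 3 fell by more than 1 on the log2 scale, and 26.5% of all genes called lower did so. All levels below are TMM-normalized CPM, that is counts relative to the total of the tested genes in a library after TMM scaling between libraries.

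**Figure D1:**
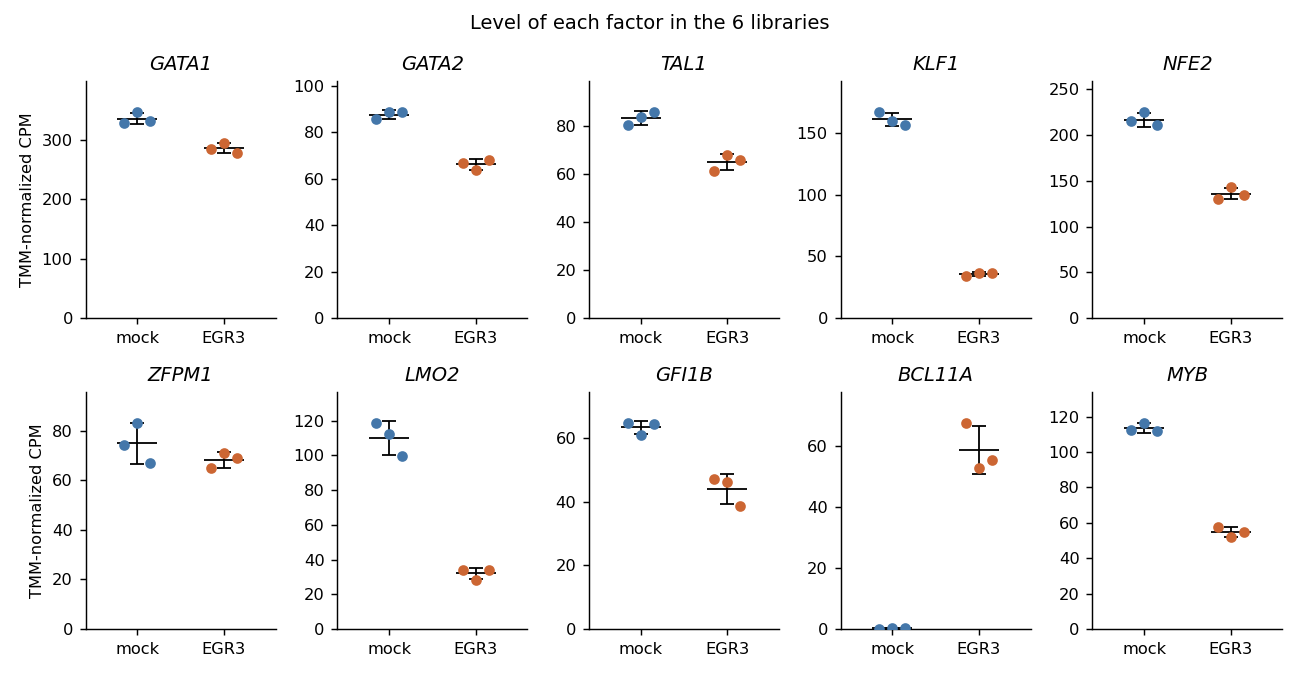
Level of each factor in TMM-normalized CPM (vertical axes from 0, a scale of its own for each gene) in the 3 SEM::mock (blue) and 3 SEM::EGR3 (orange) libraries, where points are libraries, horizontal bars are means and whiskers are the SD. The points of both lines are separate for every factor except ZFPM1, and BCL11A lies near 0 in SEM::mock.

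The GATA factors fell slightly. GATA1 (ENSG00000102145, chromosome X, 48786554 to 48794311, GRCh38, plus strand) gave 1861, 2072 and 1694 counts for SEM::mock and 4426, 2191 and 2513 for the deeper SEM::EGR3 libraries, which corresponds to 329, 347 and 332 CPM and to 285, 295 and 278 CPM. Every SEM::EGR3 library lay below every SEM::mock library once depth was accounted for. The means were 336 ± 9.68 and 286 ± 8.71 CPM (SD, n = 3 each). This gave a log2 fold change of -0.23 (standard error, SE, 0.05, adjusted p = 0.000342), and GATA1 transcripts were abundant in both lines. GATA2 (ENSG00000179348, chromosome 3, 128479427 to 128493185, minus strand), the factor of earlier progenitors, gave 484, 528 and 452 counts for SEM::mock and 1033, 473 and 617 for SEM::EGR3. Its levels of 85.5 to 88.6 CPM in SEM::mock and 63.7 to 68.2 CPM in SEM::EGR3 did not overlap either. The log2 fold change of GATA2 was -0.40 (SE 0.06, adjusted p = 4.07e-06). Within each library, the log2 ratio of GATA2 to GATA1 counts was -1.94 ± 0.03 in SEM::mock and -2.11 ± 0.09 in SEM::EGR3 (SD, n = 3 each). The difference of -0.17 had an exact permutation p of 0.1 (two-sided), the smallest that 3 against 3 libraries allow, and 0.1 after adjustment over the 3 ratios tested here.

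ZFPM1, the cofactor of GATA1 (ENSG00000179588, chromosome 16, 88453317 to 88537016, plus strand), gave 420, 497 and 342 counts for SEM::mock and 1004, 528 and 624 for SEM::EGR3. The levels, 74.2, 83.2 and 67.1 CPM in SEM::mock and 64.8, 71.1 and 69.0 CPM in SEM::EGR3, overlapped. The log2 fold change was -0.14 (95% confidence interval -0.30 to 0.01, adjusted p = 0.0869). This depends on the third SEM::mock library, the lowest of its line for ZFPM1, without which the log2 fold change was -0.23 (adjusted p = 0.0133).

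The factors of the TAL1 complex fell to unequal extents. TAL1, the basic helix-loop-helix factor of the complex (ENSG00000162367, chromosome 1, 47216290 to 47232220, minus strand), gave 455, 500 and 438 counts for SEM::mock and 949, 504 and 597 for SEM::EGR3. Its level went from 83.3 ± 2.77 to 65.0 ± 3.44 CPM (SD, n = 3 each) without overlap. TAL1 thus had a log2 fold change of -0.37 (SE 0.07, adjusted p = 2.76e-05). An antisense transcript, AL135960.1, shares 845 exon bases with TAL1 but had at most 6 counts in any library. LMO2, the LIM-only bridge of the complex (ENSG00000135363, chromosome 11, 33858576 to 33892289, minus strand), gave 673, 670 and 507 counts for SEM::mock and 523, 209 and 308 for SEM::EGR3. The raw counts of LMO2 were thus lower in SEM::EGR3 replicates 2 and 3 than in any SEM::mock library although the SEM::EGR3 libraries were deeper. In CPM, LMO2 measured 119, 112 and 99.4 in SEM::mock and 33.7, 28.2 and 34.0 in SEM::EGR3, 3.42-fold lower (log2 fold change -1.77, SE 0.08, adjusted p = 5.28e-16). Of all 15465 tested genes, 359 had a lower log2 fold change than LMO2. The 95% confidence intervals of TAL1 (-0.50 to -0.23) and LMO2 (-1.94 to -1.61) did not meet.

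KLF1 was the factor with the largest fall among the 10. The gene (ENSG00000105610, chromosome 19, 12884422 to 12887199, minus strand) encodes a zinc finger activator of adult globin and of many red cell genes. It gave 945, 955 and 796 counts for SEM::mock and 528, 273 and 331 for SEM::EGR3, so that each SEM::EGR3 library held fewer raw counts of KLF1 than each SEM::mock library despite more counts in all. The level fell from 161 ± 5.52 to 35.8 ± 1.52 CPM (SD, n = 3 each), that is 4.52-fold, for a log2 fold change of -2.18 (SE 0.06, adjusted p = 1.45e-19). Only 151 of 15465 tested genes had a lower log2 fold change. In the KLF1 promoter shown above, none of the 4 searched motifs was found.

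**Figure D2:**
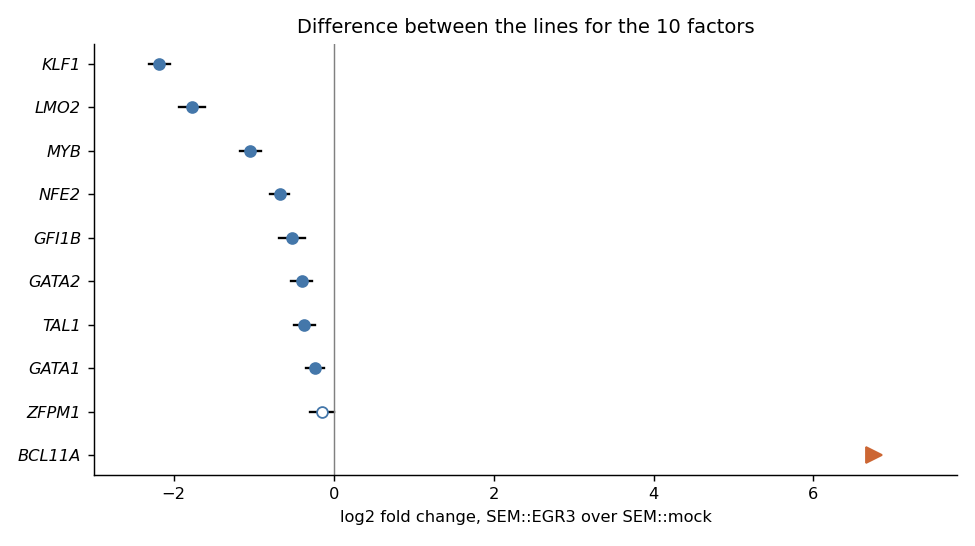
Log2 fold change of SEM::EGR3 over SEM::mock for the 10 factors (horizontal axis), with lines for the 95% confidence interval over 3 against 3 libraries, filled circles for adjusted p under 0.05 and an open circle for ZFPM1. The arrowhead for BCL11A marks a lower bound of 109-fold, and KLF1, LMO2 and MYB lie beyond -1.

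NFE2 and GFI1B fell moderately. NFE2, the tissue-specific subunit of a heterodimer with small MAF proteins (ENSG00000123405, chromosome 12, 54292111 to 54301121, minus strand), gave 1215, 1343 and 1072 counts for SEM::mock and 2023, 1061 and 1218 for SEM::EGR3. Its level was 217 ± 7.55 CPM in SEM::mock and 136 ± 6.33 CPM in SEM::EGR3 (SD, n = 3 each), which gave a log2 fold change of -0.68 (SE 0.06, adjusted p = 1.11e-10). GFI1B, a SNAG domain repressor of red cells and platelets (ENSG00000165702, chromosome 9, 132944000 to 132991687, plus strand), gave 367, 364 and 328 counts for SEM::mock and 729, 344 and 350 for SEM::EGR3. No SEM::EGR3 library reached the level of a SEM::mock library for either gene. The GFI1B levels were 64.9, 61.0 and 64.3 CPM in SEM::mock and 47.0, 46.3 and 38.7 CPM in SEM::EGR3, a log2 fold change of -0.52 (SE 0.08, adjusted p = 2.38e-06). GFI1B shares 349 exon bases with TSC1 on the opposite strand, and TSC1 was higher in SEM::EGR3 (log2 fold change 0.29, adjusted p = 0.0164). Whether strand was used in counting is not given in the sources used here.

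BCL11A moved in the opposite direction to the other factors. This zinc finger repressor (ENSG00000119866, chromosome 2, 60450520 to 60555154, minus strand) gave 0, 1 and 2 counts for SEM::mock and 1048, 392 and 502 for SEM::EGR3. SEM::mock thus lay at the detection limit in each library, where 3 counts correspond to between 0.502 and 0.588 CPM, and all SEM::EGR3 libraries lay far above, at 67.6, 52.8 and 55.5 CPM. Against 3 counts per SEM::mock library, BCL11A in SEM::EGR3 was higher by at least 109-fold (adjusted p = 1.17e-18), a bound that covers counting error only. Setting it against ZBTB7A, the other main silencer of gamma globin, gave a log2 ratio of -8.99 ± 1.42 in SEM::mock and -1.40 ± 0.13 in SEM::EGR3 (SD, n = 3 each, 0.5 counts added, exact permutation p = 0.1, the smallest possible). With 3 counts added the difference between the lines fell from 7.59 to 6.08, so its size depends on the near absence of BCL11A counts in SEM::mock.

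MYB, the progenitor factor that also holds gamma globin down (ENSG00000118513, chromosome 6, 135181315 to 135219173, plus strand), gave 635, 696 and 571 counts for SEM::mock and 890, 386 and 497 for SEM::EGR3. The levels were 112, 117 and 112 CPM in SEM::mock and 57.4, 52.0 and 54.9 CPM in SEM::EGR3. The replicates of each line lay close together and the lines were far apart. The fall was 2.06-fold (log2 fold change -1.04, SE 0.06, adjusted p = 2.17e-13), and 1220 of all tested genes had a lower log2 fold change. Across the 9 factors other than BCL11A, the SD was between 1.99% and 10.8% of the mean in SEM::mock and between 3.05% and 10.5% in SEM::EGR3, with the widest spread in SEM::mock for ZFPM1.

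The partners of the TAL1 and LMO2 complex did not follow their core members as a group. Of 20 genes in this list, 18 were tested, of which 11 were higher, 5 were lower and 2 did not pass, with a median log2 fold change of 0.49. The shares over all tested genes were 36.5% higher and 32.0% lower, with a median of 0.03. LYL1, the closest relative of TAL1, fell from 337 ± 13.5 to 149 ± 8.56 CPM (log2 fold change -1.18, adjusted p = 2.54e-15). CBFA2T3 (ETO2), a corepressor of the complex, fell with a log2 fold change of -1.40 (adjusted p = 8.48e-15). LDB1, the dimerizing scaffold, fell less, from 50.8 ± 1.86 to 40.0 ± 1.23 CPM (log2 fold change -0.35, adjusted p = 0.000196). In contrast, LMO4, a relative of LMO2 that also binds LDB1, rose from 133 ± 10.9 to 469 ± 17.9 CPM (log2 fold change 1.82, adjusted p = 1.67e-18). RUNX1, a core factor of blood stem cells and of B cell progenitors, rose from 61.1 ± 1.48 to 156 ± 5.81 CPM (log2 fold change 1.35, adjusted p = 9.51e-16), and the E protein gene TCF3 rose with a log2 fold change of 0.42 (adjusted p = 3.64e-07). The ETS factor ERG had 0 counts in every SEM::mock library and 174, 85 and 112 counts in SEM::EGR3, at least 21.6-fold higher, and its relative FLI1 was at least 16.0-fold higher. Within each library, the log2 ratio of LYL1 to TAL1 was 2.01 ± 0.10 in SEM::mock and 1.19 ± 0.01 in SEM::EGR3, and the difference of -0.82 had an exact permutation p of 0.1, the smallest possible.

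**Figure D3:**
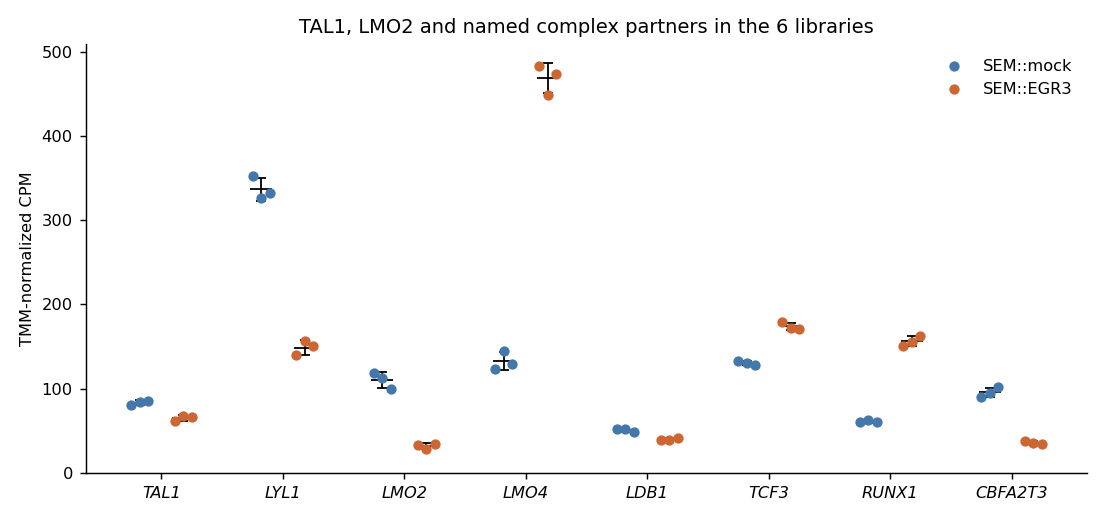
TMM-normalized CPM (vertical axis from 0) of TAL1, LMO2 and 6 named partners in the 3 SEM::mock (blue) and 3 SEM::EGR3 (orange) libraries, with the mean and SD in black. LYL1, LMO2 and CBFA2T3 were lower and LMO4 and RUNX1 higher in all SEM::EGR3 libraries.

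Among 15 paralogues of the factors, 13 were tested, of which 6 were higher, 4 lower and 3 not called (median log2 fold change -0.02). Across all tested genes, 36.5% were higher and 32.0% lower (median 0.03). GFI1, the relative of GFI1B used in lymphoid and myeloid cells, went from 34, 44 and 26 counts in SEM::mock to 519, 232 and 342 counts in SEM::EGR3. It rose with a log2 fold change of 2.46 (adjusted p = 3.50e-14), while GFI1B fell. GATA3, the GATA factor of T cells, rose from 0.606 to 4.60 CPM (log2 fold change 2.90, adjusted p = 3.50e-08), a low level in both lines with 3, 3 and 4 counts in SEM::mock. KLF3 and NFE2L3 fell with log2 fold changes of -0.61 (adjusted p = 6.77e-07) and -1.07 (adjusted p = 2.78e-06). Of the 5 small MAF and BACH genes, whose proteins pair with NFE2 or compete for its sites, 4 were lower and 1 was higher (median -0.42). MAFG fell from 131 ± 6.03 to 98.5 ± 2.99 CPM (log2 fold change -0.42, adjusted p = 1.00e-06) and MAFF fell with a log2 fold change of -1.02 (adjusted p = 0.000105). The repressor gene BACH1 was the one that rose, with a log2 fold change of 0.39 (adjusted p = 0.00018).

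All 30 genes of the globin switch list, which holds corepressor subunits and fetal-stage regulators, were tested. Of these, 17 were higher, 10 were lower and 3 did not pass, with a median log2 fold change of 0.25. For comparison, 36.5% of all tested genes were higher and 32.0% lower, with a median of 0.03. ZBTB7A gave 501, 620 and 470 counts for SEM::mock and 2494, 1095 and 1399 for SEM::EGR3, and rose in CPM without overlap (log2 fold change 0.70, adjusted p = 5.72e-10). The corepressor genes RCOR1 and TBL1XR1 rose with log2 fold changes of 1.31 (adjusted p = 2.20e-13) and 1.02 (adjusted p = 5.23e-13). SOX6, a partner of BCL11A in silencing gamma globin, went from 6, 22 and 8 counts to 227, 115 and 151 counts (log2 fold change 2.84, adjusted p = 6.41e-11). In contrast, 2 RNA-binding factors of the fetal stage fell. LIN28B gave 238, 229 and 192 counts for SEM::mock and 173, 72 and 87 for SEM::EGR3, a log2 fold change of -1.93 (adjusted p = 2.13e-14). IGF2BP1 fell from 337 ± 19.1 to 110 ± 5.62 CPM (log2 fold change -1.62, adjusted p = 1.05e-17).

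**Figure D4:**
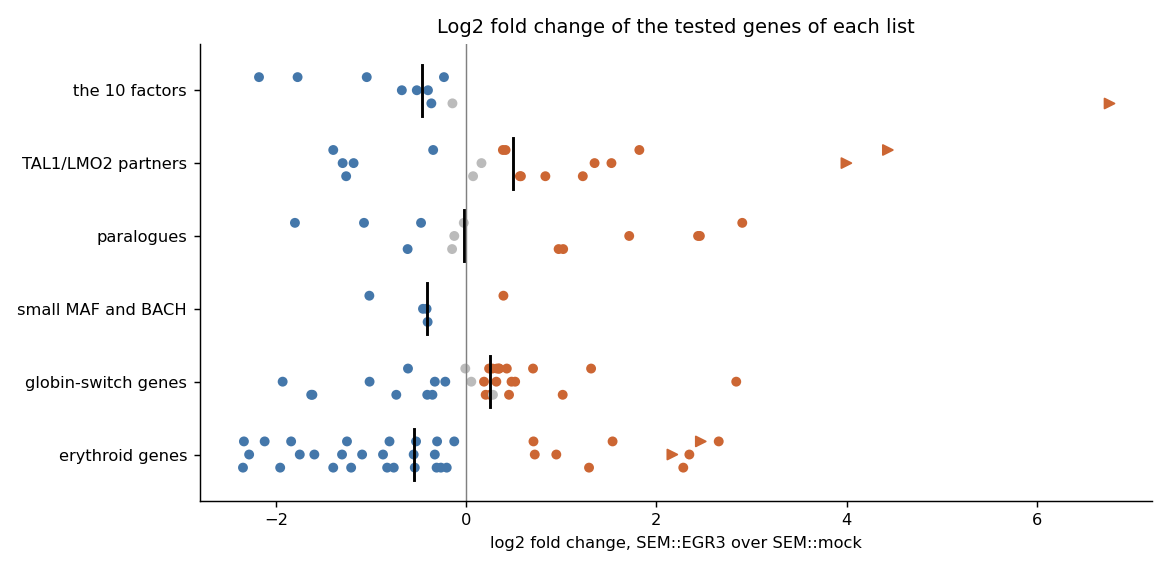
Log2 fold change of SEM::EGR3 over SEM::mock (horizontal axis) for each tested gene of the 10 factors and of 5 gene lists, in orange for higher, blue for lower and grey for not called, with arrowheads for lower bounds where SEM::mock was at the detection limit and a black bar for the median. The medians lie below 0 for the factors (-0.46) and the erythroid genes (-0.55) and above 0 for the TAL1 and LMO2 partners (0.49).

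The erythroid genes on which these factors are known to act were called in both directions. Of 42 genes in the list, 36 were tested, and 26 were lower and 10 higher, with a median log2 fold change of -0.55. Lower calls made up 32.0% and higher calls 36.5% of all tested genes, whose median was 0.03. The summed level of the list rose slightly nonetheless, from between 7325 and 7629 CPM in SEM::mock to between 7820 and 8013 CPM in SEM::EGR3, and globin genes carry most of it. Outside the 9 globin genes, 29 genes were tested, of which 23 were lower and 6 higher. The erythropoietin receptor gene EPOR fell from 14.9 ± 0.717 to 8.77 ± 1.13 CPM (log2 fold change -0.76, adjusted p = 2.81e-05).

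Of the 9 globin genes, 7 were tested, with 4 higher and 3 lower in SEM::EGR3, against 36.5% and 32.0% of all tested genes. The fetal gamma globin genes HBG1 and HBG2 fell together, with log2 fold changes of -1.25 (adjusted p = 6.67e-14) and -1.30 (adjusted p = 1.42e-17). HBG2 went from 2343 ± 38.2 to 949 ± 30.7 CPM, still a high level. Since both genes are near-identical and reads may be split between them, their sum is given as well, which was 2476 ± 39.5 CPM in SEM::mock and 1005 ± 33.1 CPM in SEM::EGR3 (SD, n = 3 each), 2.46-fold lower. HBD of the adult pair fell with a log2 fold change of -2.35 from 39, 52 and 46 counts, and HBB was at or below 3 counts in every library of both lines. The alpha-type genes HBZ, HBA1 and HBA2 went the other way, and another globin gene, not named here, was also higher. HBA1 and HBA2, likewise near-identical, rose with log2 fold changes of 1.54 (adjusted p = 1.87e-18) and 2.35 (adjusted p = 7.22e-20), and their sum was 727 ± 46.9 CPM in SEM::mock and 2578 ± 86.7 CPM in SEM::EGR3, 3.54-fold higher. The embryonic HBZ rose from 864 ± 63.4 to 2117 ± 93.3 CPM (log2 fold change 1.29, adjusted p = 2.56e-16). Lower gamma globin, higher alpha-type globin, lower KLF1 and the appearance of BCL11A were thus measured in the same libraries, and the dependence of any of them on another was not tested.

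**Figure D5:**
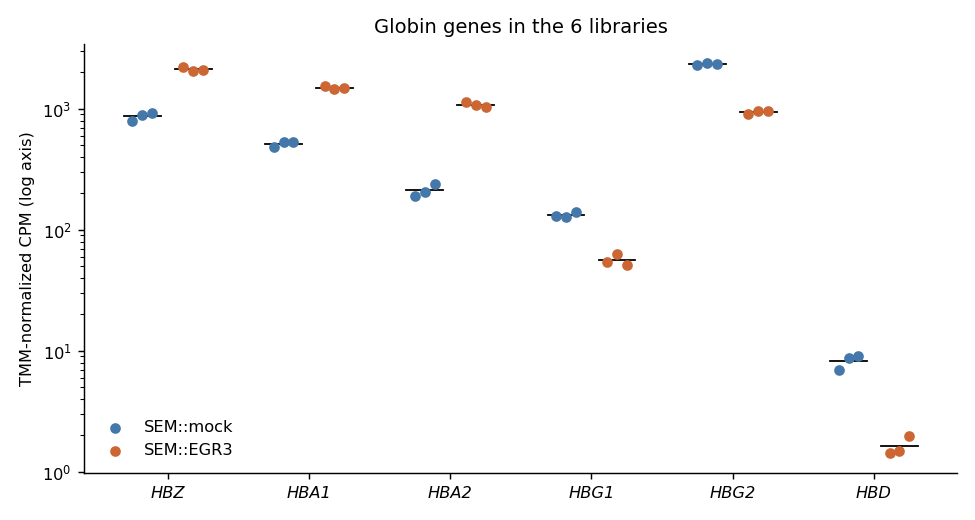
TMM-normalized CPM (vertical log axis) of 6 globin genes in the 3 SEM::mock (blue) and 3 SEM::EGR3 (orange) libraries, with black bars for the means. HBZ, HBA1 and HBA2 were higher and HBG1, HBG2 and HBD lower in SEM::EGR3, without overlap between the lines.

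Neighbouring and antisense genes of the factors were called in both directions as well. Of 23 such genes, 17 were tested, with 4 higher, 6 lower and 7 not called (median -0.08). Over all tested genes the shares were 36.5% higher and 32.0% lower. The genes beside KLF1 both fell, DNASE2 at 2.95 kb with a log2 fold change of -0.61 (adjusted p = 6.63e-07) and GCDH at 3.83 kb with -0.75 (adjusted p = 1.88e-07), each less than KLF1 itself. Beside GATA1, HDAC6 rose (0.78, adjusted p = 1.91e-08) and GLOD5 fell (-0.66, adjusted p = 0.00603). GATA2-AS1, which lies over the GATA2 start on the other strand without sharing exon bases, fell (-0.31, adjusted p = 0.02), and RPN1 beyond it rose (0.33, adjusted p = 0.000157). STIL beside TAL1 fell (-0.39, adjusted p = 0.000272), COPZ1 beside NFE2 fell (-0.17, adjusted p = 0.00647) and CBX5 on its other side rose (0.40, adjusted p = 4.06e-05). The tested genes around BCL11A (PAPOLG and REL), MYB (HBS1L and AHI1) and LMO2 (CAPRIN1) did not pass the threshold. All values in parentheses are log2 fold changes of SEM::EGR3 over SEM::mock.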

How the data were processed

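RNA was measured by MACE-Seq in 3 SEM::mock and 3 SEM::EGR3 libraries, grouped by their titles. The headings ERG3 were read as EGR3, the spelling of the titles. The table the authors deposited holds raw whole counts for each gene in each library. The authors also deposited CPM values headed as TPM, whose ratio to the count is constant within a library, and these served here only to find the library totals, of which the listed genes make up 73.6% to 75.8%. Size-factor scaled values and the authors' own comparison (fold changes, p-values) were not used. The submitters' processing notes name bcl2fastq, Bowtie2, HTSeq and GRCh38, and the annotation and strand setting are not given in the sources used here. Replicates of a line differed beyond counting noise (chi-square over degrees of freedom 1.71 to 3.12).

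The counts were filtered by filterByExpr in edgeR 4.0.16 (R 4.3.3), scaled by TMM and compared by glmQLFit and glmQLFTest over all 6 libraries, with Benjamini-Hochberg adjustment over 15465 genes and 95% confidence intervals from the same fit. On simulated counts of this comparison (15031 genes), 190 of 198 changed genes were recovered (96.0%) with 4 false calls. In the data, 68.5% of the tested genes were called, and recovery with so large a share of changed genes was not tested. The 96.0% is 1 value over all changed genes and gives no recovery for changes smaller than 1 on the log2 scale. Of the 8 lower factors, 5 fell by less than 1, and recovery at their size was not tested. A gene with at most 3 counts in every library of a line was taken as at the detection limit, and its fold given against 3 counts per library, for counting error only. Ratios of 2 genes within a library had 0.5 counts added and were compared by an exact permutation test. Positions are from GENCODE release 29, which holds 97.0% of the identifiers, and promoters from RefSeq.

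The 10 factors and all lists were chosen with earlier results of these data known. Named are the 10 factors, per list up to 2 higher and 2 lower genes of smallest adjusted p, every called neighbour, and LDB1, LYL1, TCF3, RUNX1, GATA3, ZBTB7A, HBG1, HBG2, EPOR and KIT. A result of 1 gene under this rule is not reported here. ERG, FLI1, SOX6, HBZ, HBD and HBB were named after their values were seen. Alternatives were DESeq2 1.42.0, other or no normalization factors, other filters, equal depth, the replicate number as a term, a minimum absolute log2 fold change of 1, 3 counts added to ratios, and leaving out each library. The p-values measure the spread between the replicates of 1 line per condition.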

Additional observations from a re-analysis of the deposited data

How the results depend on the processing

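Each of the 10 factors kept its direction under every alternative run, 15 in number for each factor and 14 for BCL11A, which a filter of at least 10 counts in every library removed, leaving 0 factors called higher. Under a minimum absolute log2 fold change of 1, 1928 genes were called higher and 840 lower, among them 2 of the factors (KLF1 and LMO2) as lower, while GATA1 (-0.23), GATA2 (-0.40), TAL1 (-0.37), NFE2 (-0.68), GFI1B (-0.52) and MYB (-1.04, adjusted p = 0.421) no longer passed, since this test asks for a larger change. ZFPM1 ranged from -0.23 to -0.071 on leaving out single libraries, and passed only without SEM::mock replicate 3. The difference in the log2 ratio of BCL11A to ZBTB7A was 6.08 with 3 counts added. Without normalization factors the median of all genes moved by 0.078 on the log2 scale. No shared deviation was seen between libraries of the same replicate number, which correlated at -0.11, -0.06 and -0.03. Libraries of different numbers correlated at -0.008 to 0.071. Such values cannot decide whether libraries were prepared in pairs, which is not given in the sources used here. With a replicate block, 8 factors were again lower and 1 higher, the same genes, and 5388 genes in all were higher and 4693 lower. Depth limits statements on BCL11A in SEM::mock, where 3 counts were 0.502 to 0.588 CPM.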

Other observations

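The lists for other blood lineages that share these factors were called in both directions. Of 21 megakaryocyte genes, 9 were tested, with 4 higher and 3 lower, against 36.5% and 32.0% of all tested genes. NRGN, a platelet transcript, rose from 35.4 ± 4.22 to 455 ± 17.2 CPM (SD, n = 3 each, log2 fold change 3.69, adjusted p = 5.58e-23, edgeR's quasi-likelihood test), and VWF was at least 4.71-fold higher than in SEM::mock, where it had 0 counts. THBS1 and GP6 fell with log2 fold changes of -1.72 and -2.42. Of 17 mast cell and basophil genes only 4 had enough counts, of which 3 were lower and 1, HPGD, was higher (1.31). MITF fell with a log2 fold change of -1.57, and KIT, the stem cell factor receptor, gave 87, 92 and 83 counts for SEM::mock and 100, 47 and 63 for SEM::EGR3 (-1.25, adjusted p = 1.57e-08).

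Of 13 myeloid markers, 6 were tested, with 3 higher and 2 lower, against 36.5% and 32.0% of all tested genes. CEBPA and ITGAM rose with log2 fold changes of 3.35 and 1.67, and LYZ and CD33 fell with -1.85 and -1.37. Of 11 T cell markers, 6 were tested, with 3 higher and 3 lower. TRAC rose with a log2 fold change of 5.94 and LCK was at least 96.6-fold higher, while CD3D and TRBC1 fell with -3.25 and -4.23. The summed level of the myeloid markers was 297 to 307 CPM in SEM::mock and 236 to 238 CPM in SEM::EGR3, and that of the T cell markers 87.1 to 99.6 CPM and 133 to 145 CPM. The part of these differences in the values of the erythroid factors was not tested.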
